A study of Mus musculus with 12 samples.

Results

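The genes described here are 10 mouse genes that cells are known to switch on when oxygen is short or when they ferment glucose: Vegfa, Egln3, Ankrd37, Bnip3, Slc2a1, Slc2a3, Hk2, Pgk1, Ldha and Pdk1. They were taken by gene symbol from the array's annotation, which gave exactly 1 probe to each, so 10 of 15967 annotated genes and 10 of 24613 probes are covered. RNA came from the mouse embryonic stem cell line W9.5 while it was differentiated towards pancreatic progenitor cells, and 12 Illumina BeadChip arrays were run, 3 on each of days 0, 4, 8 and 15. The protocol applied activin A first, retinoic acid second, and retinoic acid with fibroblast growth factor last; the labels repeat this text for every array, those of day 0 among them, and leave the day of each agent unstated. The labels do not say that the 3 arrays of a day came from separate cultures, so the p-values measure only the spread between these arrays, which may be technical. No oxygen level is given in the labels, and no untreated culture of the same age was among the samples, so time in culture and treatment cannot be told apart.

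In cells with enough oxygen, prolyl hydroxylases of the Egln family mark the alpha subunits of hypoxia-inducible factor (HIF) for destruction through the von Hippel-Lindau protein, Vhl. When oxygen falls, HIF persists and switches on genes for blood vessel growth, glucose uptake, glycolysis and lactate production, and genes that keep pyruvate out of the mitochondria. Pluripotent stem cells are known for high glycolysis even with oxygen present, and they commonly turn towards mitochondrial respiration as they differentiate. Growth factors, the Myc protein and nutrient supply act on many of the same genes, so their RNA levels are not in themselves a measure of oxygen.

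Levels are log2 values after background correction and quantile normalization, and differences are on the same scale, so a rise of 1 unit multiplies the signal by 2. A probe was taken as detected where the detection p-value, which sets it against the array's negative control probes, was under 0.05. The limma test of differences between days ran on 9657 genes detected on at least 3 of the 12 arrays, and "rose" and "fell" are used where the p-value adjusted by the Benjamini-Hochberg method was under 0.05. Of the 10 genes, 8 were detected on all 12 arrays, and the counts below are over these 8. Pgk1 passed the filter only through days 4 and 8, so its test had to show a difference, and Bnip3 was detected on 0 of 12 arrays and was not tested. Arrays of 1 day correlated with each other at 0.987 to 0.993 and with arrays of other days at up to 0.968, and no array stood apart from the others of its day. The 6 pluripotency markers were detected on every array. Their summed signal was between 23930 and 30791 on day 0 and between 15551 and 18353 on day 4. It was between 5685 and 6177 on day 8 and between 8381 and 8752 on day 15. From day 0 to day 8, 5 of the 6 fell, beside 35.5% of the genes detected on all 12 arrays. From day 8 to day 15, 4 of the 6 rose, beside 10.9%. The marker that did not fall by day 8 was Klf4, with day means of 11.69, 9.17, 11.91 and 12.03. Of the 5 pancreatic progenitor markers on the array, 4 were detected on no array of day 15, which does not show that they were silent, and 1 of these 4 was detected on at least 1 array of day 8. The fifth, Sox9, which other tissues also express, was 4.25-fold higher on day 15 than on day 0 (adjusted p = 2.26e-09).

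HIF binds DNA at a short core, searched here as ACGTG or GCGTG on both strands. The windows were the 250 bases before the listed RefSeq start sites of the mouse assembly GRCm38.p6. A match is a description of the letters and not evidence of binding. All 9 genes with an entry had at least 1 match, in 10 of their 12 windows, against 38.6% of all 32851 windows and 41.5% of all 27025 genes. The windows of these genes were also richer in G and C, with a median of 63.4% against 52.4% over all windows, and both motifs hold the pair CG. Ldha and Bnip3 each had a window with 5 matches and Ankrd37 had 4, while 2.58% of all windows had 4 or more; a palindromic CACGTG counts once on each strand. Slc2a1, Pgk1 and Hk2 had 2, and Pdk1 and Egln3 had 1. Vegfa had 2 in the window of a start site inside the annotated gene (chr17:46025164-46025413) and 0 in the window of its outermost start (chr17:46032378-46032627). The windows of Ldha and Ankrd37 also lie inside the annotated genes. Their outermost starts, at 46842274 for Ldha and 46000414 for Ankrd37, had no window. The windows of 2 genes whose RNA rose by day 4 (Ldha, at chr7:46845554-46845803 on the plus strand, and Ankrd37, at chr8:45999851-46000100 on the minus strand) and of the 2 that fell by day 8 (Pdk1, at chr2:71872974-71873223 on the plus strand, and Hk2, at chr6:82774455-82774704 on the minus strand) are printed 5′ to 3′ in the direction of the gene, ending just before the start site, with the matches in capitals.
Ldha: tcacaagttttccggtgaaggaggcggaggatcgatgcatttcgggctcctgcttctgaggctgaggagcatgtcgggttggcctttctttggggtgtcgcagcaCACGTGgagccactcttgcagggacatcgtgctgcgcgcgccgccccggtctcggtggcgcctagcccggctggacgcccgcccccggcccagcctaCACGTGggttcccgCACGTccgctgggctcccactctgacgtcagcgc
Ankrd37: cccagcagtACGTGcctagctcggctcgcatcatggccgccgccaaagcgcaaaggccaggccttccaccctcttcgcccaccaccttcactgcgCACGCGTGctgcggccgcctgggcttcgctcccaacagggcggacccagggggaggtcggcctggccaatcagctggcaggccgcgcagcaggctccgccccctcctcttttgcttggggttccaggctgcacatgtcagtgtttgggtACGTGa
Pdk1: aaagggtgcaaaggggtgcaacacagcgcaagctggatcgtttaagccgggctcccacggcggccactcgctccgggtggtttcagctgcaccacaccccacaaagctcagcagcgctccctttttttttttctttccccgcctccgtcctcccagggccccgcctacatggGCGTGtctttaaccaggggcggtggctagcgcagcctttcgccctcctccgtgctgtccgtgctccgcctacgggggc
Hk2: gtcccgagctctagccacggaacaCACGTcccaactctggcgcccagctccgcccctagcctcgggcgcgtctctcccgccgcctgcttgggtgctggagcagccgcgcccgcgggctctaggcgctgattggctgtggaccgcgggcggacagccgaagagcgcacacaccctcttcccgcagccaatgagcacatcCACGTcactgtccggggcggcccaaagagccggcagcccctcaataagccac
Genes that rose and genes that fell both carried the motif, and the number of matches was not tested against the change in RNA.

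**Figure D1:**
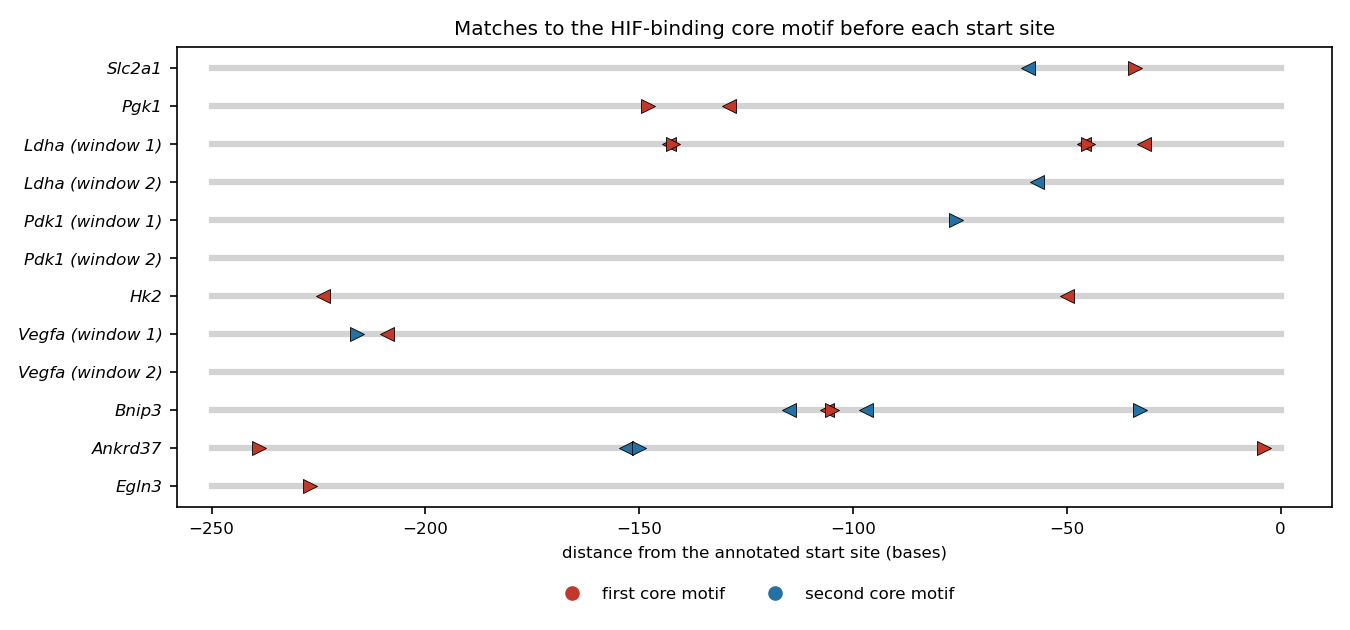
Positions of the motif matches in the 250 bases before the listed RefSeq start sites of 9 of the genes, with distance from the start site in bases on the x axis and 1 line per window. Arrowheads point along the strand of the match and colours separate the first core motif (ACGTG) from the second (GCGTG). The first Ldha window and the Bnip3 window hold 5 matches, and an additional start site of Pdk1 and the outermost start site of Vegfa hold none.

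The 8 detected genes did not move as a block, and 3 kinds of course were seen. Vegfa, Egln3 and Ankrd37 rose at both of the first steps, by 6.41-fold, 4.83-fold and 5.16-fold from day 0 to day 8. Ldha rose by day 4, and the glucose transporters Slc2a1 and Slc2a3 rose only between days 4 and 8; all 3 were then lower on day 15 than on day 8. Pdk1 and Hk2 went down, by 4.15-fold and 1.54-fold from day 0 to day 8.

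From day 0 to day 4, 4 of the 8 rose, 1 fell and 3 did not pass the test, against 14.6% higher and 13.3% lower among the 7082 genes detected on all 12 arrays. Between days 4 and 8, 5 rose, 2 fell and 1 did not pass, where 28% of the 7082 genes rose and 29.8% fell. Between days 8 and 15, 0 rose, 4 fell and 4 did not pass, where 10.9% rose and 9.95% fell. From day 0 to day 8, 6 rose and 2 fell, beside 28.9% and 35.5% of the 7082 genes, and from day 0 to day 15, 3 rose and 2 fell, beside 30.1% and 40.1%. From day 0 to day 8, 64.4% of the 7082 genes passed the test in either direction, so a count of genes called in either direction says little by itself. Over all 9657 tested genes the share that passed in either direction was 27% from day 0 to day 4, 55.1% from day 4 to day 8, 22% from day 8 to day 15, 61.5% from day 0 to day 8, 67.5% from day 0 to day 15 and 60.7% from day 4 to day 15. In a moderated F-test over the 4 days, each of the 8 passed, as did 75.2% of the 9657. The highest mean fell on day 8 for 6 of the 8, while 14.4% of the 9657 had passed with their highest mean on that day. The median change of the 8 genes was 0.47 from day 0 to day 4 and 0.85 from day 4 to day 8, beside -0.06 and -0.04 over the 7082 genes. From day 8 to day 15 it was -0.38, beside -0.06.

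**Figure D2:**
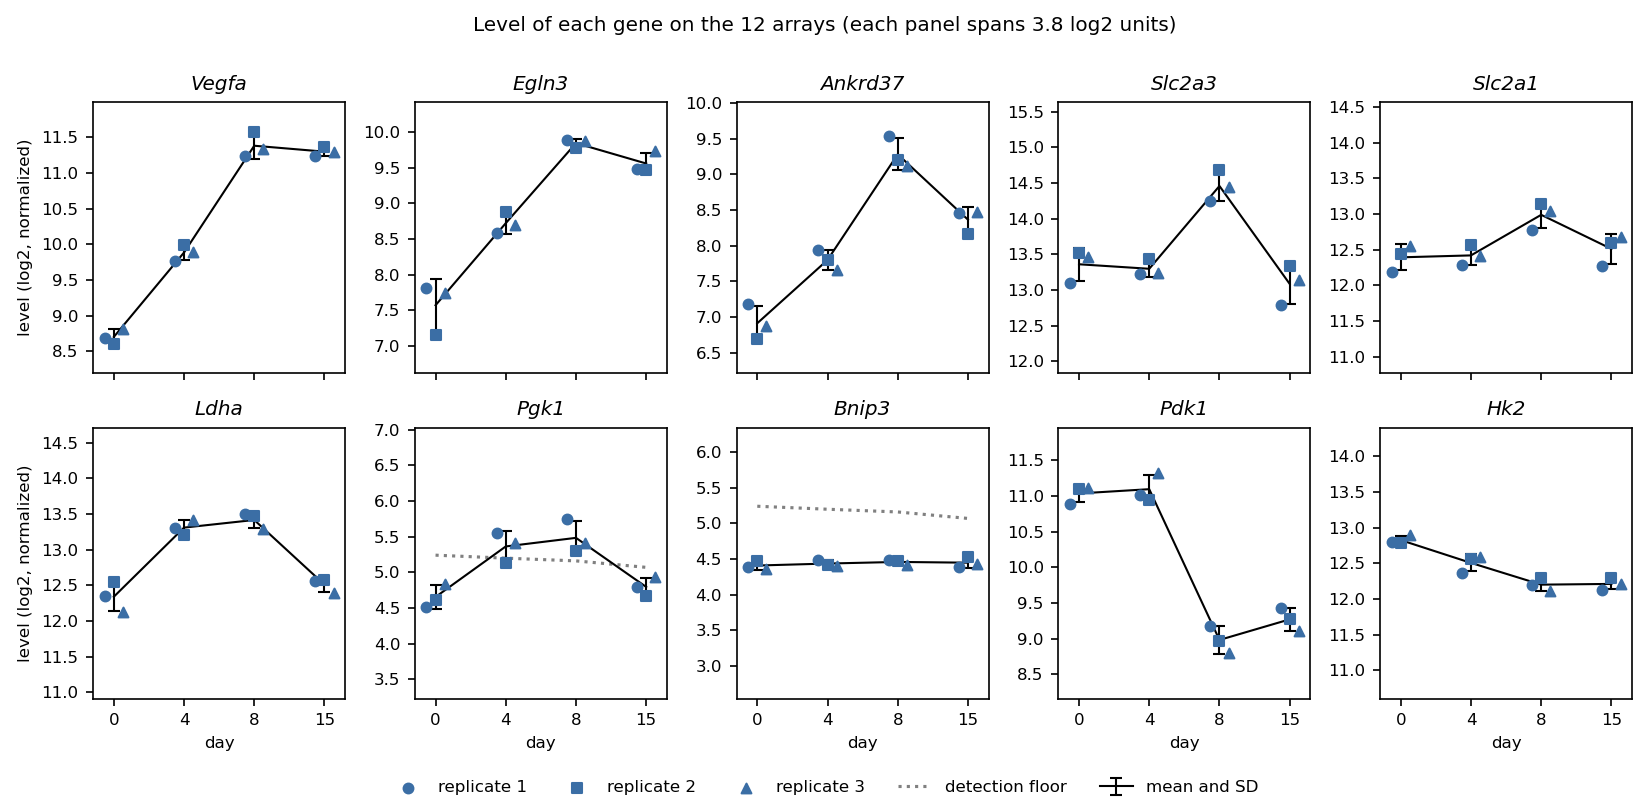
Normalized log2 level of each of the 10 genes on days 0, 4, 8 and 15, with 1 point per array (3 per day), a line through the day means and bars of 1 SD; the dotted line is the lowest signal that counts as detected, averaged over the arrays of each day. Vegfa, Egln3 and Ankrd37 climb to day 8, Pdk1 drops between days 4 and 8, and Bnip3 lies below the floor on all 12 arrays.

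Vegfa, on chromosome 17 at 46016993 to 46032377 in GRCm38.p6, encodes the main growth factor for blood vessels and is also made by embryonic endoderm. Its arrays read 8.68, 8.60 and 8.82 on day 0, 9.77, 9.99 and 9.89 on day 4, 11.23, 11.58 and 11.33 on day 8, and 11.24, 11.37 and 11.29 on day 15. The first 3 days were fully separated from one another, and the arrays of days 8 and 15 overlapped. Vegfa rose by 1.18 ± 0.12 (SE, 3 arrays against 3; 2.27-fold, limma adjusted p = 7.98e-07) from day 0 to day 4. It rose by a further 1.50 ± 0.12 (2.82-fold, adjusted p = 1.18e-08) from day 4 to day 8. Between days 8 and 15 the difference of -0.08 ± 0.12 did not pass the test (adjusted p = 0.694), so Vegfa held most of its gain and was still 6.05-fold above day 0 on day 15.

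Egln3, on chromosome 12, encodes the HIF prolyl hydroxylase that HIF itself strongly induces in many cell types, a feedback on the oxygen response. Its arrays read 7.82, 7.15 and 7.75 on day 0, 8.58, 8.89 and 8.70 on day 4, 9.89, 9.78 and 9.87 on day 8, and 9.48, 9.47 and 9.74 on day 15. No 2 days overlapped, although 1 day 0 array lay well below the other two arrays and gave the widest spread of the 8 genes on any day (SD 0.37, n = 3). Egln3 rose by 1.15 ± 0.16 (2.22-fold, adjusted p = 3.88e-05) by day 4 and by 1.12 ± 0.16 (2.18-fold, adjusted p = 1.60e-05) from day 4 to day 8. The drop of 0.29 from day 8 to day 15 did not pass the test (adjusted p = 0.253), and Egln3 was 3.96-fold above day 0 on day 15.

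Ankrd37, on chromosome 8, encodes a small ankyrin repeat protein and is a known direct HIF target in human cells. Its arrays read 7.17, 6.69 and 6.87 on day 0, 7.94, 7.79 and 7.66 on day 4, 9.53, 9.19 and 9.11 on day 8, and 8.46, 8.16 and 8.47 on day 15. All 4 days were separated, in the order day 0, day 4, day 15, day 8 from low to high. Ankrd37 rose by 0.89 ± 0.16 (1.85-fold, adjusted p = 0.000549) by day 4 and by 1.48 ± 0.16 (2.79-fold, adjusted p = 6.45e-07) from day 4 to day 8. Unlike Vegfa and Egln3, whose last step did not pass the test, it then fell by 0.92 ± 0.16 (1.89-fold, adjusted p = 0.000474); the difference between the genes in that step was not tested. On day 15 it was still 2.74-fold above day 0.

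Bnip3, on chromosome 7, encodes a mitochondrial outer membrane protein that directs mitochondria to autophagy and is a classical HIF target. Its probe read between 4.36 and 4.52 on all 12 arrays, with detection p-values of 0.658 to 0.998. The probe was not above background on any array, which sets only an upper bound on the signal and does not show that the gene is silent. Its paralogue Bnip3l, which has a related role and is named after its values were seen, was detected on all arrays and rose at both steps up to day 8.

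Both glucose transporters were detected on all 12 arrays and peaked on day 8. Slc2a3, on chromosome 6, encodes the high-affinity transporter GLUT3, which is typical of early embryos and neurons. Its arrays read 13.09, 13.52 and 13.46 on day 0, 13.22, 13.43 and 13.24 on day 4, 14.25, 14.68 and 14.44 on day 8, and 12.78, 13.33 and 13.14 on day 15. Only day 8 stood clear of the others. Slc2a3 rose by 1.16 ± 0.15 (2.24-fold, adjusted p = 2.61e-06) from day 4 to day 8 and fell by 1.37 ± 0.15 (2.59-fold, adjusted p = 1.36e-06) from day 8 to day 15. Day 15 lay 0.28 below day 0 with an adjusted p of 0.102, and this difference passed the test when day 0 replicate 1 (0.0218) or day 15 replicate 2 (0.0309) was left out and with median scaling in place of quantile normalization (0.000475).

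Slc2a1, on chromosome 4, encodes GLUT1, the widely expressed transporter of basal glucose uptake. Its arrays read 12.19, 12.44 and 12.55 on day 0, 12.28, 12.56 and 12.41 on day 4, 12.78, 13.15 and 13.04 on day 8, and 12.27, 12.59 and 12.67 on day 15. Day 8 was again the highest, without overlap, and the other days were interleaved. Slc2a1 rose by 0.57 ± 0.13 (1.48-fold, adjusted p = 0.00142) from day 4 to day 8 and fell by 0.48 ± 0.13 (1.39-fold, adjusted p = 0.0140) from day 8 to day 15. The fall did not pass the test without day 8 replicate 2 (0.0735), day 8 replicate 3 (0.0527) or day 15 replicate 1 (0.0856), and median scaling moved it to -0.72.

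Hk2, on chromosome 6, encodes hexokinase 2, which traps glucose in the cell as glucose 6-phosphate. Its arrays read 12.80, 12.78 and 12.90 on day 0, 12.37, 12.57 and 12.58 on day 4, 12.19, 12.30 and 12.11 on day 8, and 12.13, 12.29 and 12.21 on day 15. Day 0 was above all later arrays, and days 8 and 15 overlapped. Hk2 fell by 0.62 (1.54-fold, adjusted p = 2.97e-05) from day 0 to day 8 and was 1.53-fold lower on day 15 than on day 0 (adjusted p = 3.05e-05), a difference of -0.61 that median scaling moved to -0.95. The step to day 4 (-0.32 ± 0.10, adjusted p = 0.0226) did not pass without day 0 replicate 3 (0.0867) or day 4 replicate 1 (0.105) or with no intensity trend (0.0633), and median scaling moved it to -0.55. The step from day 4 to day 8 (-0.31 ± 0.10, adjusted p = 0.0146) did not pass in the authors' value table (-0.20, 0.0836), with median scaling (-0.19, 0.282), or without day 4 replicate 2 (0.0561), day 4 replicate 3 (0.0600) or day 8 replicate 3 (0.0670).

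Pgk1, on the X chromosome, encodes phosphoglycerate kinase 1, the first ATP-forming enzyme of glycolysis. Its single probe was dim, with day means of 4.65, 5.36, 5.48 and 4.80, and it was detected on 0, 2, 3 and 0 of the 3 arrays of days 0, 4, 8 and 15. Against the lowest signal that counts as detected, day 8 was at least 1.18-fold higher than day 0 and at least 1.33-fold higher than day 15, values given as a description, since the filter kept the probe through days 4 and 8.

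Ldha, on chromosome 7, encodes the lactate dehydrogenase subunit that favours making lactate from pyruvate. Its arrays read 12.35, 12.54 and 12.13 on day 0, 13.31, 13.21 and 13.41 on day 4, 13.49, 13.47 and 13.28 on day 8, and 12.57, 12.57 and 12.38 on day 15. Days 4 and 8 overlapped with each other and lay above days 0 and 15, which also overlapped. Ldha rose by 0.97 ± 0.11 (1.96-fold, adjusted p = 3.72e-06) by day 4 and fell by 0.91 ± 0.11 (1.87-fold, adjusted p = 9.39e-06) from day 8 to day 15. The differences between days 4 and 8 (0.11, adjusted p = 0.451) and between days 0 and 15 (0.17, adjusted p = 0.190) did not pass the test.

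Pdk1, on chromosome 2, encodes a kinase that shuts off the pyruvate dehydrogenase complex and is a HIF target in many cells. Its arrays read 10.89, 11.10 and 11.12 on day 0, 11.02, 10.95 and 11.32 on day 4, 9.18, 8.97 and 8.80 on day 8, and 9.43, 9.28 and 9.10 on day 15. The first 2 days overlapped, the last 2 days overlapped, and a wide gap lay between the pairs. The difference of Pdk1 between days 0 and 4 (0.06 ± 0.14) did not pass the test (adjusted p = 0.803). Pdk1 fell by 2.11 ± 0.14 (4.33-fold, adjusted p = 8.99e-10) from day 4 to day 8, while Vegfa, Egln3 and Ankrd37 rose. On day 15 it was 3.40-fold below day 0 (adjusted p = 5.00e-09), and the difference from day 8 did not pass the test (adjusted p = 0.166).

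**Figure D3:**
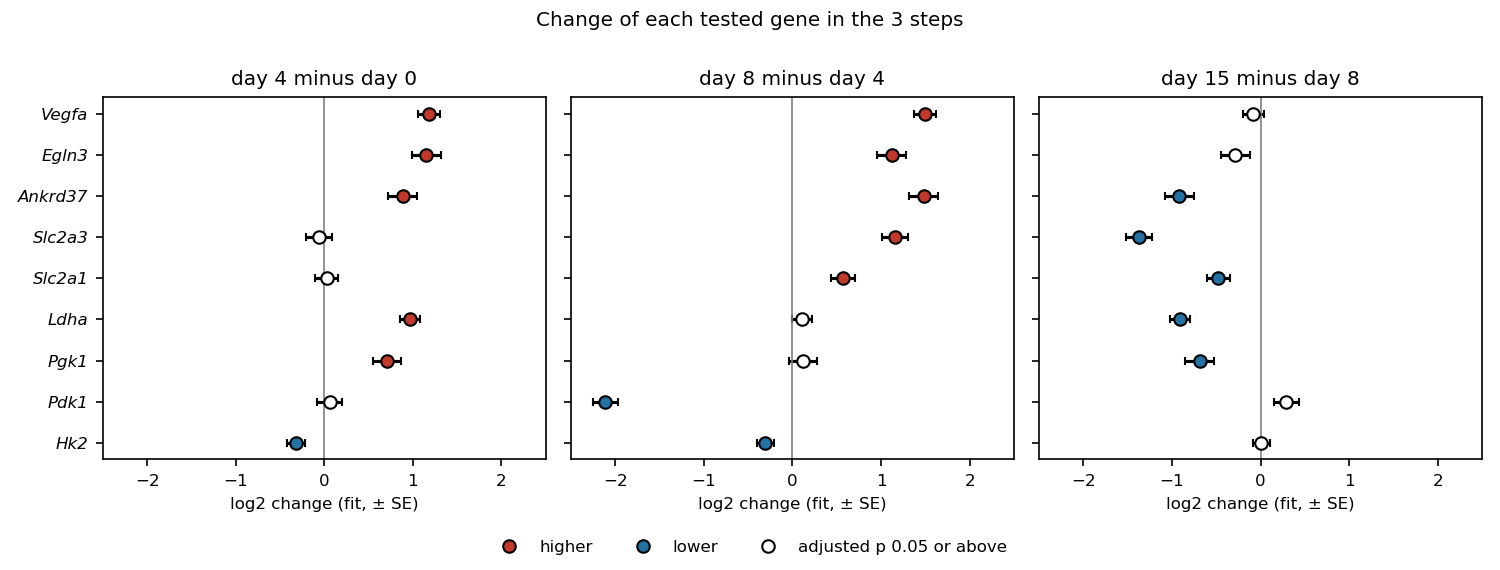
Change in log2 level in each of the 3 successive steps (day 4 minus day 0, day 8 minus day 4, day 15 minus day 8) for the 9 tested genes, with bars of 1 SE from the limma fit. Red points rose, blue points fell and white points did not pass an adjusted p of 0.05. The colours of Pgk1 do not count as evidence, since the filter kept its probe only through days 4 and 8. Pdk1 has the largest negative step, -2.11 between days 4 and 8, and Vegfa the largest positive one, 1.50.

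The authors' own log2 value table gave the same order of the 4 day means for 7 of the 8 genes, Hk2 being the exception, with day 15 (11.96) in place of day 8 (11.97) as the lowest. Its day means on days 0, 4, 8 and 15 were 8.83, 9.80, 11.17 and 11.09 for Vegfa, 10.86, 10.90, 9.05 and 9.30 for Pdk1, and 12.02, 12.91, 13.13 and 12.26 for Ldha. For Ankrd37 its differences were smaller than in the background-corrected values, with day means of 7.48, 8.11, 9.30 and 8.55. They were also smaller at each step for Vegfa, Pdk1 and Egln3 (7.97, 8.83, 9.78 and 9.55). This did not hold for every gene: Slc2a1 had a larger step from day 4 to day 8 (12.11 to 12.75, against 12.42 to 12.99).

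RNA from a bulk culture cannot tell a change in the share of a cell type from a change per cell. Cell markers moved over the same days: the summed signal of 5 endoderm markers was between 1584 and 1903 on day 0, between 1861 and 2199 on day 4, between 11555 and 13877 on day 8 and between 10652 and 11109 on day 15. That of 4 liver and visceral endoderm markers, of 5 on the array, was between 212 and 290, between 1455 and 1813, between 17878 and 22392 and between 4303 and 6580. Day 8, on which 6 of the 8 genes had their highest mean, also had the highest sum of both of these lists. Mesenchyme markers were highest on day 15, between 12836 and 16794, against 1492 to 2074 on day 0, and no blood marker was detected. The sum of 3 neuron markers, of 4 on the array, was 1172 to 1315 on day 0, 393 to 406 on day 4, 120 to 190 on day 8 and 899 to 1193 on day 15. Stmn2 was the brightest of these 3 on each day, with day means of 10.22, 8.52, 6.97 and 9.17. From day 0 to day 15 the markers went different ways: Stmn2 fell, while Tubb3 rose from 5.95 to 6.39. Of 4 cardiac muscle markers on the array, 2 passed the filter, and the other 2 were detected on no array of day 15. The sum of the 2 that passed was 42 to 46, 35 to 45, 40 to 51 and 224 to 429 on days 0, 4, 8 and 15. The neuron marker Dcx and the cardiac marker Tnnt2 were detected on day 15 only and passed the filter through that day, so no test is given for them. The part of these cell populations in the changes was not tested.

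Genes of the same pathway were followed in lists that leave out the 10 genes. Among the 19 other HIF targets detected on all arrays, 9 rose and 1 fell by day 4, beside 14.6% and 13.3% of the 7082 genes. Between days 4 and 8, 12 rose and 3 fell, beside 28% and 29.8%. From day 0 to day 8, 15 rose and 2 fell, beside 28.9% and 35.5%, and the median change was 1.49, beside -0.12 over the 7082 genes. P4ha1, a collagen prolyl hydroxylase, had day means of 5.38, 7.27, 9.94 and 9.38 and rose 23.6-fold by day 8. Car12, a carbonic anhydrase, had means of 5.55, 7.35, 9.08 and 8.51 and rose 11.5-fold. P4ha2 did not pass the test by day 4 and rose 7.81-fold from day 4 to day 8 (9.10 to 12.06) and 1.41-fold more by day 15. The targets that fell between days 4 and 8 were Ddit4, Stc2 and Hmox1, and those lower on day 8 than on day 0 were Car9 (adjusted p = 0.0458) and Hmox1 (adjusted p = 0.0140), all named after their values were seen. The count of 2 lower on day 8 than on day 0 was not stable: it became 1 or 0 in 14 of 21 alternative settings, and was 0 without day 0 replicate 1 or day 8 replicate 3. Between days 8 and 15, 2 of the 19 rose and 2 fell (Car12 and P4ha1), near the 10.9% and 9.95% of the 7082 genes. The number that fell was 0 without day 15 replicate 1 and 1 without day 8 replicate 2 or day 15 replicate 2, and the number that rose was between 1 (with median scaling) and 4 over the alternatives.

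Of 12 other glycolytic enzymes detected on all arrays, 8 rose and 0 fell by day 4 (1 fell without day 4 replicate 1), beside 14.6% and 13.3% of the 7082 genes, with a median change of 0.84 against -0.06. Between days 4 and 8, 4 rose (2 without day 8 replicate 1) and 7 fell, beside 28% and 29.8%, with a median of -0.56 against -0.04. Between days 8 and 15, 3 rose and 6 fell, beside 10.9% and 9.95%. Pfkp, the platelet form of phosphofructokinase, had day means of 8.68, 10.06, 6.42 and 7.37, a rise of 2.60-fold followed by a fall of 12.5-fold (adjusted p = 6.73e-13). Ldhb, the subunit that favours making pyruvate from lactate, had means of 9.06, 11.54, 8.08 and 9.14. It rose 5.60-fold with Ldha by day 4, then fell by 3.46 on the log2 scale (adjusted p = 1.52e-11) while Ldha did not pass the test. Eno2, the neuronal enolase, rose at all 3 steps, from 6.17 to 8.43.

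Of 18 genes of pyruvate oxidation and the citric acid cycle, 0 rose and 10 fell between days 4 and 8, the step in which Pdk1 fell, beside 28% and 29.8% of the 7082 genes. With median scaling the number that fell was 5, and without day 8 replicate 2 it was 6. Idh3a, a subunit of isocitrate dehydrogenase, fell 2.74-fold (adjusted p = 4.73e-07), Idh3g fell 1.98-fold (adjusted p = 1.69e-05) and Dlat, a subunit of pyruvate dehydrogenase, fell 1.58-fold (adjusted p = 0.00150). From day 0 to day 4, 0 of the 18 rose (1 without day 0 replicate 3) and 1 (Ogdh, named after its values were seen) fell. In that step 14.6% of the 7082 genes rose and 13.3% fell. The count of the 18 that fell was 0 without day 0 replicate 1, day 0 replicate 2 or day 4 replicate 2.

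**Figure D4:**
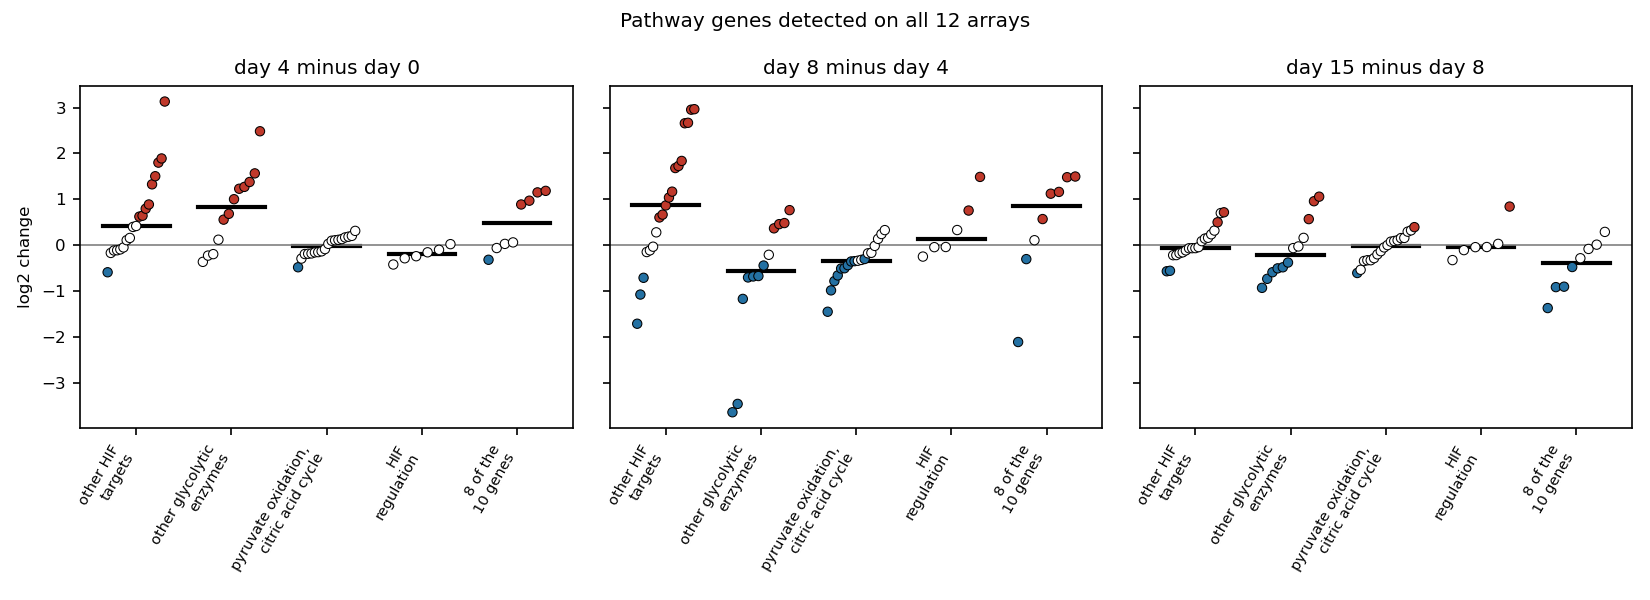
Change in log2 level per step for single genes (points) detected on all 12 arrays, for the other HIF targets, the other glycolytic enzymes, the genes of pyruvate oxidation and the citric acid cycle, the regulators of HIF, and 8 of the 10 genes; red points rose, blue points fell, white points did not pass the test, and the bar is the median. Between days 4 and 8 the median of the other HIF targets is 0.87, that of the other glycolytic enzymes -0.56 and that of the citric acid cycle list -0.34.

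Of 6 regulators of HIF detected on all arrays, 0 passed the test from day 0 to day 4, where 14.6% of the 7082 genes rose and 13.3% fell. Between days 4 and 8, 2 of the 6 rose, a share near the 28% of the 7082 genes that rose in that step. Egln1, the main prolyl hydroxylase in most cells, had day means of 6.58, 6.42, 7.91 and 7.80 and rose 2.81-fold (adjusted p = 9.47e-07). Vhl rose 1.69-fold (adjusted p = 0.000221). Siah2, a ubiquitin ligase for Egln proteins, rose 1.79-fold from day 8 to day 15 (adjusted p = 0.00188). Hif1a was not among the genes tested, and HIF protein was not measured.

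Of 10 paralogues of these genes detected on all arrays, 2 rose and 1 fell by day 4, and 2 rose and 3 fell between days 4 and 8. These shares lie near those of the 7082 genes, 14.6% and 13.3% in the first step and 28% and 29.8% in the second. The lists overlap: Ldhb, Bnip3l, Egln1 and Egln2 are also counted in the lists above. All the paralogues that rose in these steps are among them. Vegfc, a growth factor for lymphatic vessels, had day means of 11.22, 9.84, 7.74 and 8.83 and fell 2.61-fold by day 4 (adjusted p = 1.50e-05) and 4.27-fold from day 4 to day 8 (adjusted p = 2.92e-08), steps in which Vegfa rose. Pdk4 passed the filter only through days 0 and 4, so its difference from the later days is given with no test: it was detected on no array of days 8 and 15, and its day 8 level was at least 2.82-fold below that of day 4. Of the receptors for Vegfa, 2 passed the filter: Nrp1, a co-receptor, had means of 6.06, 7.03, 9.52 and 9.53, and Flt1 had means of 7.09, 11.66 and 11.79 on days 4, 8 and 15. Flt1 was detected on 1 of 3 arrays on day 0. Nrp1 rose 5.63-fold between days 4 and 8 (adjusted p = 2.59e-09), the step in which Vegfa rose by 2.82-fold. Of 4 endothelial markers, Cdh5 and Emcn were higher on day 8 (means 7.08 and 6.17) than on day 4 (5.13 and 5.41), and Pecam1 and Tek were lower (4.84 and 5.31, against 6.32 and 6.71). Their summed signal was between 105 and 161 on day 0, between 188 and 222 on day 4, between 205 and 229 on day 8 and between 609 and 986 on day 15, and the part of endothelial cells in the receptor changes was not tested.

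**Figure D5:**
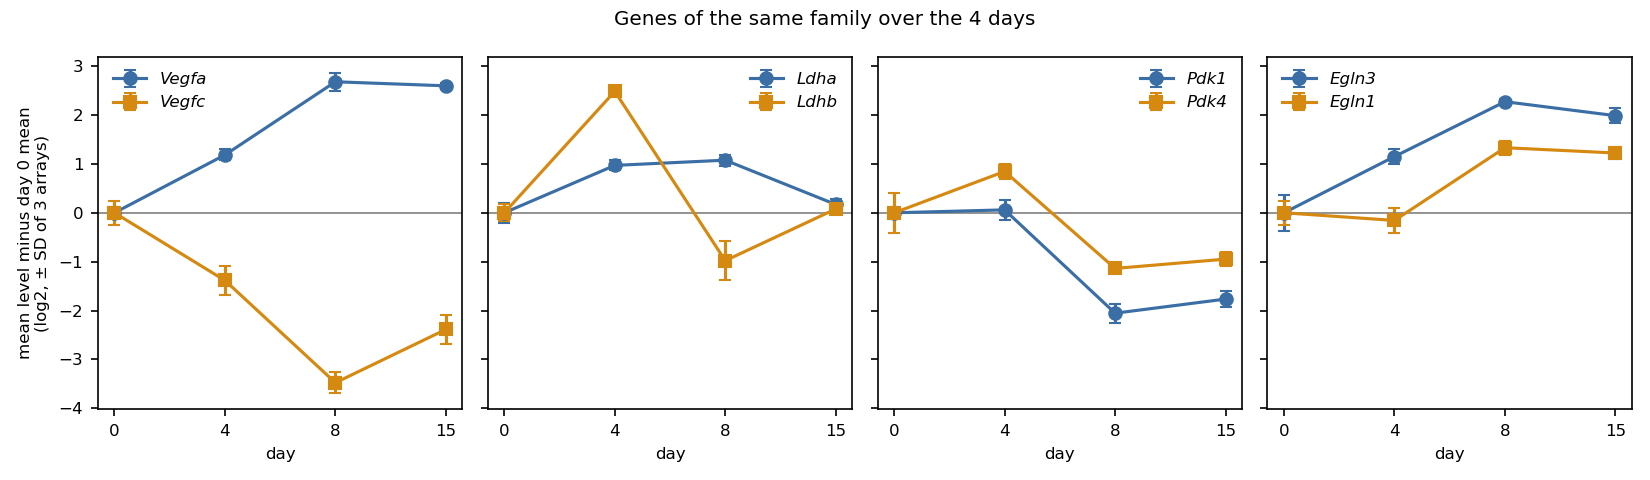
Mean log2 level minus the day 0 mean for 4 pairs of paralogues (Vegfa and Vegfc, Ldha and Ldhb, Pdk1 and Pdk4, Egln3 and Egln1), with bars of 1 SD over 3 arrays. Vegfa ends 2.60 above its day 0 mean while Vegfc ends 2.39 below its own. On day 4 Ldhb is 2.48 above its day 0 mean and Ldha 0.97 above its own, although the level of Ldha is the higher (13.31 against 11.54). On day 8 Ldhb is below its day 0 level.

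Across the 12 arrays the courses paired up, as a description of points that share days and arrays. Vegfa and Egln3 correlated at 0.974, Ankrd37 and Egln3 at 0.945 and Vegfa and Ankrd37 at 0.910. Slc2a1 and Slc2a3 correlated at 0.899, Ldha and the dim Pgk1 probe at 0.877 and Pdk1 and Hk2 at 0.849. The most negative pairs were Hk2 and Vegfa at -0.934, Hk2 and Egln3 at -0.922 and Pdk1 and Vegfa at -0.904. Among all tested genes, the closest to Vegfa were Cyp26a1 (0.994), Cobll1 (0.993) and Frk (0.993). Cyp26a1 encodes an enzyme that breaks down retinoic acid. The closest to Pdk1 were Slc1a5 (0.992), a glutamine transporter, Mkrn1 (0.991) and Stag3 (0.990). The closest to Ankrd37 were Cyba (0.988), Gstt3 (0.983) and Wnk2 (0.982), and to Egln3 Neu1 (0.990), Rab17 (0.988) and Cd55 (0.987). Ldha was closest to Lama5 (0.962), Rhpn1 (0.953) and Foxq1 (0.945), and Hk2 to Nmnat2 (0.975), Aggf1 (0.971) and Sult4a1 (0.966). Slc2a3 was closest to Emb (0.963), Dpp4 (0.940) and Slc30a1 (0.938), and Slc2a1 to Slc30a1 (0.917), Ppip5k2 (0.915) and Zfp551 (0.914), so the zinc transporter Slc30a1 stood near both glucose transporters. The dim Pgk1 probe was closest to Gstm1 (0.911), Lyplal1 (0.911) and C2 (0.901).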

How the data were processed

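RNA of 12 samples of the W9.5 line, 3 per day, was hybridised to Illumina arrays. The authors deposited a table of raw intensities with a detection p-value per probe, and a table of log2 values; its normalization is not given in the sources used. Within each array, the 10 genes had the same rank order in its log2 values as in the deposited intensities.

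The intensities were corrected with limma 3.58.1 in R 4.3.3 (neqc, offset 16, with the background estimated through the detection p-values), which also quantile-normalizes. The authors' log2 table served as an alternative. Of 24613 probes, the 13421 detected (p-value under 0.05) on 3 or more of the 12 arrays were kept. Of all probes 20984 had 1 gene symbol, 1 had several and 3628 had none. The brightest probe stood for a gene. A mean per day was fitted with limma (intensity trend, 8 residual degrees of freedom), 6 comparisons between days were tested, and p-values were adjusted over all 9657 genes. Median scaling, another offset, other filters, the trend, the replicate number and each left-out array were tried as alternatives. The procedure was tested on simulated data. "At least" folds are set against the lowest detected signal of each array. All columns of samples were used.

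The genes and lists were chosen with earlier results of these data known. The rule for other genes took up to 3 per list, those with the widest span of day means among genes that passed an F-test over the 4 days, and the 3 genes with the highest correlation to each of the genes.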

Additional observations from a re-analysis of the deposited data

How the results depend on the processing

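Under 22 alternatives, 12 of them leaving out 1 array, no difference between days of the 9 tested genes that had passed the test changed its direction. In 1162 cases the call was the same, in 15 it was lost and in 5 it was gained; these concern Hk2, Slc2a1 and Slc2a3, and the cause was not tested. Besides the cases given with these genes, the fall of Hk2 from day 4 to day 15 (adjusted p = 0.0160) had an adjusted p between 0.00502 and 0.0663. Of the 9 genes, the number called was 5 to 6 from day 0 to day 4, 6 to 7 from day 4 to day 8, 4 to 5 from day 8 to day 15 and 8 to 9 from day 0 to day 8. Over all tested genes it was 2082 to 3505, 4779 to 5894, 1697 to 2858 and 5495 to 6435 in these comparisons. Pgk1 is among the 9, and the filter kept it through days 4 and 8. Its calls against days 0 and 15 therefore do not count as evidence. Signal near background limits Pgk1 and Bnip3, and an offset of 50 took the rise of Pgk1 from day 0 to day 8 from 0.83 to 0.41. The 18 pairs of arrays with the same replicate number on 2 days had correlated deviations of -0.06 to 0.50, 14 of them over 0.1. The median for pairs with different numbers was -0.17, and 10 of 12 arrays were closest to their own number. Arrays of the same number thus tended to deviate together. The labels name no culture or batch that they share, so the main test has no block, and what they share was not tested. With the replicate number as a block, 6, 7, 5 and 9 of the 9 genes, Pgk1 again included, were called in the same 4 comparisons, and 6 from day 0 to day 15 and 8 from day 4 to day 15. Over all tested genes, the block took the number called from day 0 to day 4 from 2611 to 3505. Without the block, 27%, 55.1%, 22%, 61.5%, 67.5% and 60.7% of the 9657 genes passed in these 6 comparisons, in the same order. Over all alternatives the number called was 6050 to 7035 from day 0 to day 15 and 5436 to 6383 from day 4 to day 15. The block brought Slc2a3 past the threshold on day 15 against day 0 (-0.28, adjusted p = 0.00606, over all alternatives 0.000475 to 0.460) and against day 4 (-0.21, adjusted p = 0.0301, over all alternatives 0.0301 to 0.738), and it changed no other call of these genes. With it, 4 of the 19 other HIF targets rose between days 8 and 15, where 2 had risen.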
